A study of Mus musculus with 59 samples.

Results

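Mice carrying 1 altered copy of Naa15 (HT) were compared with wild-type mice (WT) after vehicle alone, in messenger RNA of the prefrontal cortex. The comparison holds 19 of the 59 libraries of the series: 9 from HT mice (5 females and 4 males) and 10 from WT mice (5 females and 5 males), chosen by the genotype, treatment and sex in their labels. All were C57BL/6J mice whose tissue was taken at postnatal day 25, after vehicle had reached the pups in their mothers' milk from day 3 to day 24. The other libraries came from mice given lithium (10 HT and 10 WT) or fluoxetine (10 HT and 10 WT) by the same route, and are used below as libraries that the vehicle comparison did not use. The labels do not give the nature of the Naa15 allele, the composition of the vehicle or the litters. The p-values set a difference against the spread between these samples, each taken as independent. Pups of a litter shared a mother's milk, so p-values could be too small where libraries came from littermates. The labels call the tissue prefrontal cortex, and markers of neighbouring regions are given below.

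Naa15 encodes the auxiliary subunit that anchors the NatA complex to the ribosome, where its catalytic partner Naa10 acetylates the N-terminus of many nascent proteins. Naa50 is a further acetyltransferase bound to the complex, Hypk is its small inhibitory partner, and Naa16 is a paralogue of Naa15. Acetylation by NatA acts on proteins, so transcript levels are a remote readout of it. In humans, variants that disrupt NAA15 are a known cause of neurodevelopmental disorder.

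The authors scaled each library's gene counts by its size factor before deposit, and the scaled values are called normalised read counts here. The 19 libraries held 25.2 to 32.5 M reads each, with a median of 27.7 M. The table lists 18088 genes, of which 17190 had a normalised read count of 10 or more in 4 or more of the 19 libraries and were tested. Genotype was tested with limma on log2 of the value plus 1 with sex as a covariate, and fold changes are HT over WT on that log2 scale, followed by ± and the fitted SE. The adjusted p is Benjamini-Hochberg over all genes tested, and a gene is said to have risen or fallen only where it was under 0.05. The median log2 fold change of all genes was -0.00034 and their median size was 0.050.

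Sex-linked transcripts matched the labels in every library. Xist, the RNA that silences an X chromosome in females, had 14153 to 25107 normalised read counts in the 10 females and 1.06 to 977 in the 9 males, where the next highest male value was 104. Summed markers of cortical excitatory neurons were 155614 to 196443 in HT and 138806 to 202435 in WT libraries. Some libraries held more RNA of neighbouring regions. The summed level of 6 striatal markers was 16989 in HT male replicate 3 and 13447 in WT female replicate 4, against 2845 to 5435 in the other 17. The summed level of 5 olfactory bulb markers was 4257 in HT female replicate 5, and 8519 and 6586 in WT female replicates 1 and 5, against 246 to 2086 in the others. None of 7 measures of library depth, composition and marker content differed between genotypes beyond their spread (lowest exact permutation p within sex = 0.183, two-sided; all 7 adjusted to 0.802).

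Naa15 (ENSMUSG00000063273, chromosome 3) did not separate the genotypes at the level of its gene count. HT libraries had 1510 to 1710 normalised read counts with a median of 1599, and WT libraries 1476 to 1971 with a median of 1612. The ranges overlapped, and the log2 fold change was -0.03 ± 0.041 (limma adjusted p = 0.929), so the counts do not check the genotype labels. The other NatA genes were not called either. Naa10 differed by 0.06 ± 0.050, Naa50 by -0.03 ± 0.034, Naa16 by 0.00 ± 0.054 and Hypk by -0.13 ± 0.109. None of the 5 measured members of the complex reached an unadjusted p under 0.05. Of 42 genes tested within 5 Mb of Naa15, 0 were called by limma and 1 had an unadjusted p under 0.05, lower in HT.

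Across all genes the vehicle comparison called 8, 1 higher and 7 lower in HT, which is 0.0465% of the genes tested (0.00582% higher and 0.0407% lower). At an unadjusted p under 0.05 there were 1101 genes (6.4%), 537 higher (3.12%) and 564 lower (3.28%) in HT. Kif5c rose. The genes that fell were the chromosome 12 transcripts Gm5784, 1700030C10Rik and 2410018L13Rik, the chromosome 2 genes Gm14419 and Gm2004, the zinc finger gene Zfp951 and the protocadherin Pcdha12. On the reads recovered from the values, edgeR called the same 8 genes and DESeq2 called 22, the 8 among them (6 higher and 16 lower). With replicate numbers as blocks within sex, limma called only some of the 8, and Kif5c alone when the numbers of the library names were used. For each of the 8, all 9 HT libraries lay beyond the WT mean of their sex, which follows in large part from choosing them on these libraries. Gli1 and other genes that were not called shared this trait. In the reads behind the values, which also depend on transcript length, 6 of the 8 had fewer normalised read counts than the median gene tested (472), and Kif5c and Pcdha12 had more. In bulk tissue, fewer cells of a type and less RNA per cell cannot be told apart.

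**Figure D1:**
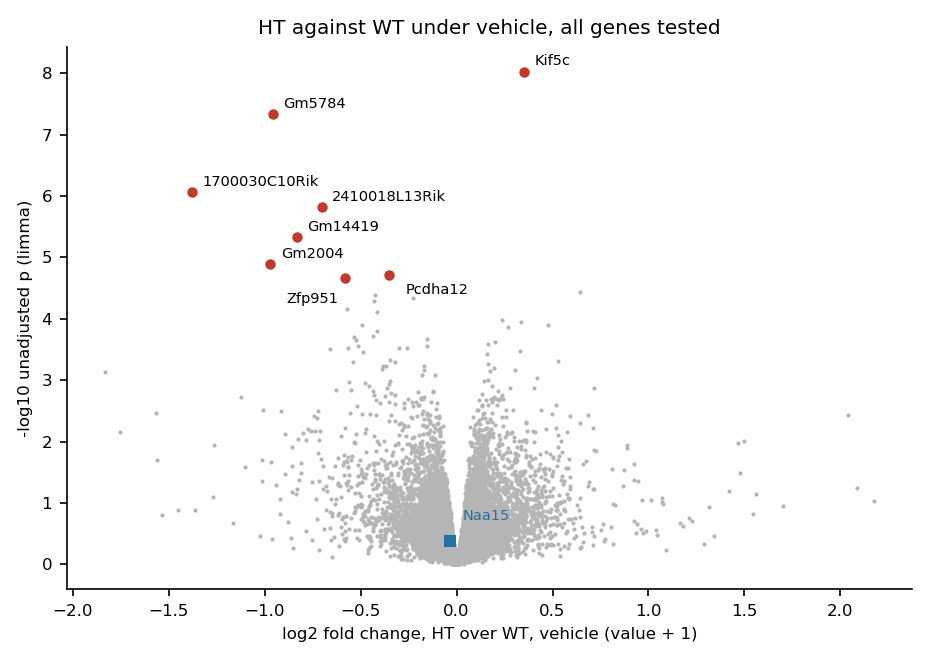
Each point is 1 of the 17190 genes tested under vehicle: the x axis is the log2 fold change of HT over WT, the y axis the -log10 of limma's unadjusted p. The 8 called genes are red and named, Kif5c alone lies on the higher side, and Naa15 (blue square) lies near the origin at -0.03.

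Kif5c, the neuron-enriched heavy chain of kinesin-1, the motor that carries cargo outward along axonal microtubules, showed the clearest difference. It lies on chromosome 2 (49619298 to 49774778, plus strand, GRCm38). The 9 HT libraries had 31301 to 37789 normalised read counts with a median of 33889, and the 10 WT libraries 24504 to 28186 with a median of 27151. Every HT library was above every WT library. Kif5c rose by 0.35 ± 0.037 (limma adjusted p = 0.000162). The sexes were also contrasted in a joint limma fit of the groups of genotype and sex, with a shared spread. There the difference was 0.40 ± 0.050 in females (limma adjusted p = 0.00367) and 0.30 ± 0.053 in males (limma adjusted p = 0.276).

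Kif5b, the kinesin-1 heavy chain found in most cell types, lay in the same direction without passing the threshold. It had 5259 to 7014 normalised read counts with a median of 6180 in HT libraries, and 4803 to 5969 with a median of 5157 in WT libraries. The ranges overlapped, 8 of 9 HT libraries exceeded the WT mean of their sex, and the log2 fold change was 0.23 ± 0.049 (adjusted p = 0.118). The third heavy chain, Kif5a, which is neuronal, had 70555 to 84073 in HT and 64595 to 83137 in WT libraries, with a log2 fold change of 0.04 ± 0.047. The light chains Klc1, Klc2 and Klc4, which couple the motor to cargo, differed by 0.01 ± 0.032, 0.02 ± 0.044 and -0.00 ± 0.038. Klc3, at a median of 21.5 in HT and 27.4 in WT libraries, differed by -0.44 ± 0.176 (unadjusted p = 0.0225, adjusted p = 0.672). Over the 7 kinesin-1 genes the median was 0.02 and 1 was called. Of 10 cargo adaptors and 21 other axonal motor genes 0 were called by limma, with medians of 0.00 and -0.00 and 0 and 1 genes at an unadjusted p under 0.05. Of the 27 genes tested within 5 Mb of Kif5c, Kif5c was the only one with an unadjusted p under 0.05.

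**Figure D2:**
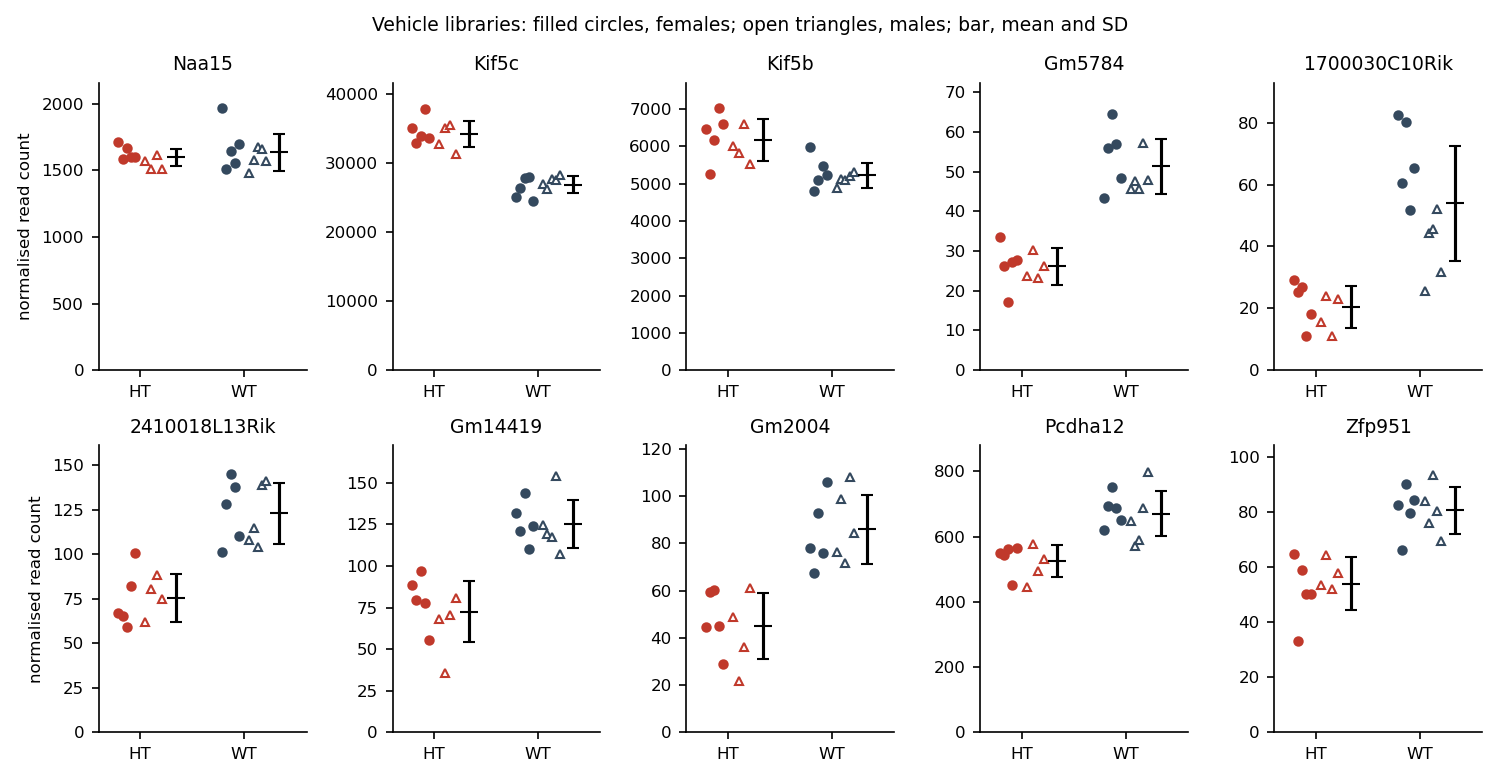
Normalised read counts (y axis, from 0) of Naa15, Kif5c, Kif5b and the 7 genes that fell, in the 9 HT libraries (left) and 10 WT libraries (right) under vehicle. Circles are females, triangles males, and bars the mean and SD: Kif5c is at 31301 or more in every HT library and at 28186 or less in every WT library, whereas the Naa15 values overlap.

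Gm14419 and Gm2004 lie on distal chromosome 2 in a segment from 175 to 178 Mb that holds 35 tested genes, 6 of them with Zfp symbols and 28 with Gm symbols, many annotated only as protein coding. The segment was delimited after its values were seen, so its counts are a description. Zinc finger proteins of such arrays bind DNA, and arrays of this kind are known to arise by repeated duplication. The transcripts of these genes are alike in sequence: the median gene of the segment shares 91.6% of its 31-base words with other genes, against 0.343% over all genes tested. Every 31-base word of Gm2004 also occurs in Gm14419 and 81.2% of them in Gm14295, so the authors' counting could divide reads between these copies, and values for single members are uncertain.

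Gm14419 had 35.4 to 96.7 normalised read counts with a median of 77.6 in HT libraries, and 107 to 154 with a median of 122 in WT libraries. It fell by 0.83 on the log2 scale (SE 0.134, limma adjusted p = 0.0161), with every HT library below every WT library. Gm2004 had 21.9 to 61.0 with a median of 44.8 in HT libraries, and 67.4 to 108 with a median of 81.1 in WT libraries. It fell by 0.97 (SE 0.169, adjusted p = 0.0369), again without overlap. Over all genes tested, 2 had every HT library above every WT library (0.0116%) and 5 had every HT library below (0.0291%), and Gm14419 and Gm2004 are among the 5. The call of Gm2004 was lost on leaving out any of 12 of the 19 libraries (limma adjusted p up to 0.0966), and held without HT female replicates 2 or 3, HT male replicates 2 or 4, WT female replicates 2 or 4, or WT male replicate 3.

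Of the 35 genes in the segment, 33 had negative log2 fold changes, with a median of -0.19, and 15 had an unadjusted p under 0.05 with lower values in HT, against 0 with higher values. Gm14295 had 327 to 552 in HT and 531 to 720 in WT libraries, with a log2 fold change of -0.35 ± 0.083 (adjusted p = 0.219). Gm14296 had 621 to 1106 in HT and 1100 to 1305 in WT libraries, with -0.32 ± 0.077 (adjusted p = 0.219). Both sets overlapped narrowly. Other members of the segment lay near 0, among them Zfp965 at 0.04 ± 0.076 and Gm14410 at -0.06 ± 0.077. Under lithium 32 of the 35 were negative, with a median of -0.14. In the fluoxetine males 19 of the 35 were negative with a median of -0.02. Over both sexes under fluoxetine 9 were negative, the median was 0.11, and limma called 4 lower and 11 higher. The 4 genes called lower under lithium, Gm2004, Gm14419, Gm14295 and Gm14296, were also the 4 called lower in the fluoxetine males. The summed level of the 35 genes under vehicle was 6961 to 9467 in HT libraries with a median of 9008, and 9065 to 11080 in WT libraries with a median of 9880. HT male replicate 2 had the lowest of the 19 values in 16 of the 35 genes. Its summed level was 6961, against 8436 to 9467 in the other HT libraries. The calls of Gm14419 and Gm2004 held without it, but the counts and median over the 35 genes were not repeated without it.

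The promoters of the segment are printed because genes of near-identical RefSeq start regions had different values. RefSeq (GRCm38.p6) gave a window of 250 bases before to 50 after the start for 23 of the 35 genes. RefSeq and GENCODE can place a start differently: the window of Gm2004 lies upstream of its GENCODE span (176141591 to 176149825, minus strand). It may therefore not be the start of the transcripts that were counted. Compared with Gm2004, the other 22 windows had 217 to 288 identical bases of 300 in a local alignment, with a median of 271. Gm2004 (chr2:176153373-176153672, minus strand) shared 269 of 271 aligned bases with Gm14295 (chr2:176798350-176798649, plus strand). It shared 271 of 289 with Gm2026 (chr2:175965105-175965404, plus strand), whose log2 fold change was -0.08 ± 0.099. In the windows below, capitals mark the 244 bases that are identical in all 3 genes.
Gm2004: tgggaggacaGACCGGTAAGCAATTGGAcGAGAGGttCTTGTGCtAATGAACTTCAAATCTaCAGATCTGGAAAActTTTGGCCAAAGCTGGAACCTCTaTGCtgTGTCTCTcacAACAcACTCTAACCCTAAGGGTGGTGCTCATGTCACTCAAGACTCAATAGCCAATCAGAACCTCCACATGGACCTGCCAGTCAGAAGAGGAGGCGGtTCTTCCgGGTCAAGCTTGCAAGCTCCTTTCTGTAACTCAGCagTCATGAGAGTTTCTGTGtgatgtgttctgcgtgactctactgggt
Gm14295: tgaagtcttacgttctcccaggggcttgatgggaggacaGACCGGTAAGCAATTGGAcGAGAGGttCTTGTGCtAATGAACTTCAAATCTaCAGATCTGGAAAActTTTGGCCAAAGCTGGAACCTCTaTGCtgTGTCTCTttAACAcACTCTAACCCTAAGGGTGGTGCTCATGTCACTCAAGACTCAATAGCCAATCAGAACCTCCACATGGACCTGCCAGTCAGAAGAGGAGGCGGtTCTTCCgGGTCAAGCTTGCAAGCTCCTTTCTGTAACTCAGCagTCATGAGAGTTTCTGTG
Gm2026: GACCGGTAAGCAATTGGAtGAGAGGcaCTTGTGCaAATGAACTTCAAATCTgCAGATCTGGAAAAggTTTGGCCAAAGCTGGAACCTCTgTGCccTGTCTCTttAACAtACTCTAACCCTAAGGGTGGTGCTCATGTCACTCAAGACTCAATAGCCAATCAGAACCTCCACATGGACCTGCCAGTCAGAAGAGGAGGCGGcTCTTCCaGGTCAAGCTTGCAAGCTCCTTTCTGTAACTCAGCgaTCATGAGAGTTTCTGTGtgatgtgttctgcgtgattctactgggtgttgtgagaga
The sequence CCAAT, searched on both strands, occurs in 28 of the 28 windows RefSeq lists for genes of the segment, and in 37.4% of all 32851 promoter windows. The GC box GGGCGG, searched likewise, was in 0 of the 28 and in 35.7% of all windows. The 28 windows are alike in sequence and are not separate observations, and they include those of genes with values near 0. The window most like that of Gm2004 belongs to Zfp965 (288 of 292 aligned bases), whose log2 fold change of 0.04 stands beside -0.97 for Gm2004.

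The 3 transcripts of chromosome 12 that fell lie between 19 and 25 Mb, a segment again delimited after its values were seen. Gm5784 (19387809 to 19433081, plus strand) is a long intergenic noncoding RNA in GENCODE and protein coding in RefSeq. It had 17.2 to 33.6 normalised read counts with a median of 26.3 in HT libraries, and 43.4 to 64.6 with a median of 48.1 in WT libraries. All HT libraries were below all WT libraries, and it fell by 0.96 (SE 0.113, limma adjusted p = 0.0004). 2410018L13Rik (22953997 to 23010284, minus strand), also noncoding, had 59.1 to 100.8 with a median of 74.6 in HT libraries, and 101.0 to 145 with a median of 122 in WT libraries. The groups met without overlapping, and it fell by 0.70 (SE 0.105, adjusted p = 0.00654). 1700030C10Rik (20804381 to 20815779, minus strand), a processed transcript, had 10.9 to 29.1 with a median of 23.1 in HT libraries, and 25.7 to 82.4 with a median of 51.9 in WT libraries. Here the groups overlapped, and it fell by 1.38 (SE 0.197, adjusted p = 0.00493).

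These transcripts also share sequence. Of their 31-base words, 37.5% in Gm5784, 58.3% in 2410018L13Rik and 27.7% in 1700030C10Rik occur in other gene entries, and 13.5% of those of Gm5784 occur in 2410018L13Rik. The values given for 1700030C10Rik are those of ENSMUSG00000099759. Another entry with the same symbol, ENSMUSG00000091071, holds 20.6% of its words, so reads could be divided between the entries, and its values are not given here. Their RefSeq promoter windows are printed because 232 of 241 aligned bases were identical between Gm5784 (chr12:19387620-19387919, plus strand) and 2410018L13Rik (chr12:23010194-23010493, minus strand), which both fell. Capitals mark those 232 bases.
Gm5784: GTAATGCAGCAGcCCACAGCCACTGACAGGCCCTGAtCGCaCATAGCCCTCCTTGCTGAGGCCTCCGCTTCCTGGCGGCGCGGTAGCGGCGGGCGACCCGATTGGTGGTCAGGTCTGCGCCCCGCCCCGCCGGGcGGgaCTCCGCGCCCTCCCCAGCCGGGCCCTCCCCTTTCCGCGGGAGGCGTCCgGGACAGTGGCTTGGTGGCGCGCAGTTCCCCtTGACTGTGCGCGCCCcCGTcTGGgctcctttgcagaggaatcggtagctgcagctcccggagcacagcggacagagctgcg
2410018L13Rik: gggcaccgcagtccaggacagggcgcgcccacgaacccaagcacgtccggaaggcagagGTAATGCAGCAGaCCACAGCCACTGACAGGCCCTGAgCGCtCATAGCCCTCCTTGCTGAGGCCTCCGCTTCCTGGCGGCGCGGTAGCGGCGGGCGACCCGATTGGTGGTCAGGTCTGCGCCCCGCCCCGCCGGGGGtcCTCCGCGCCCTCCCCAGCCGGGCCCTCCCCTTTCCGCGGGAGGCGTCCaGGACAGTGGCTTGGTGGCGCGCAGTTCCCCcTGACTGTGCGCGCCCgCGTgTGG
The window of 1700030C10Rik was identical to that of 2410018L13Rik at 206 of 265 aligned bases. The GC box GGGCGG occurs 2 times in the window of Gm5784 and 1 time in that of 2410018L13Rik, and CCAAT 1 time in each.

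Of the 30 genes tested in the chromosome 12 segment, 8 were lower in HT at an unadjusted p under 0.05 and 0 higher, with a median of -0.05. The median was -0.04 under lithium and -0.09 in the fluoxetine males, where limma called 4 and 2 genes lower and 0 higher. The 5 that were not called include Gm49769, next to Gm5784, with 0 to 9.46 normalised read counts in HT and 7.98 to 21.5 in WT libraries (-1.83 ± 0.460, adjusted p = 0.256). 9030624G23Rik had 30.1 to 53.6 in HT and 46.1 to 69.5 in WT libraries (-0.54 ± 0.118, adjusted p = 0.157). Between these lie genes with values near 0. Examples are Adam17, a membrane protease, at 0.00 ± 0.052, and Ywhaq, a 14-3-3 protein, at -0.02 ± 0.026. The summed level of the segment, which such genes dominate, was 25380 to 27400 in HT and 25350 to 27940 in WT libraries.

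**Figure D3:**
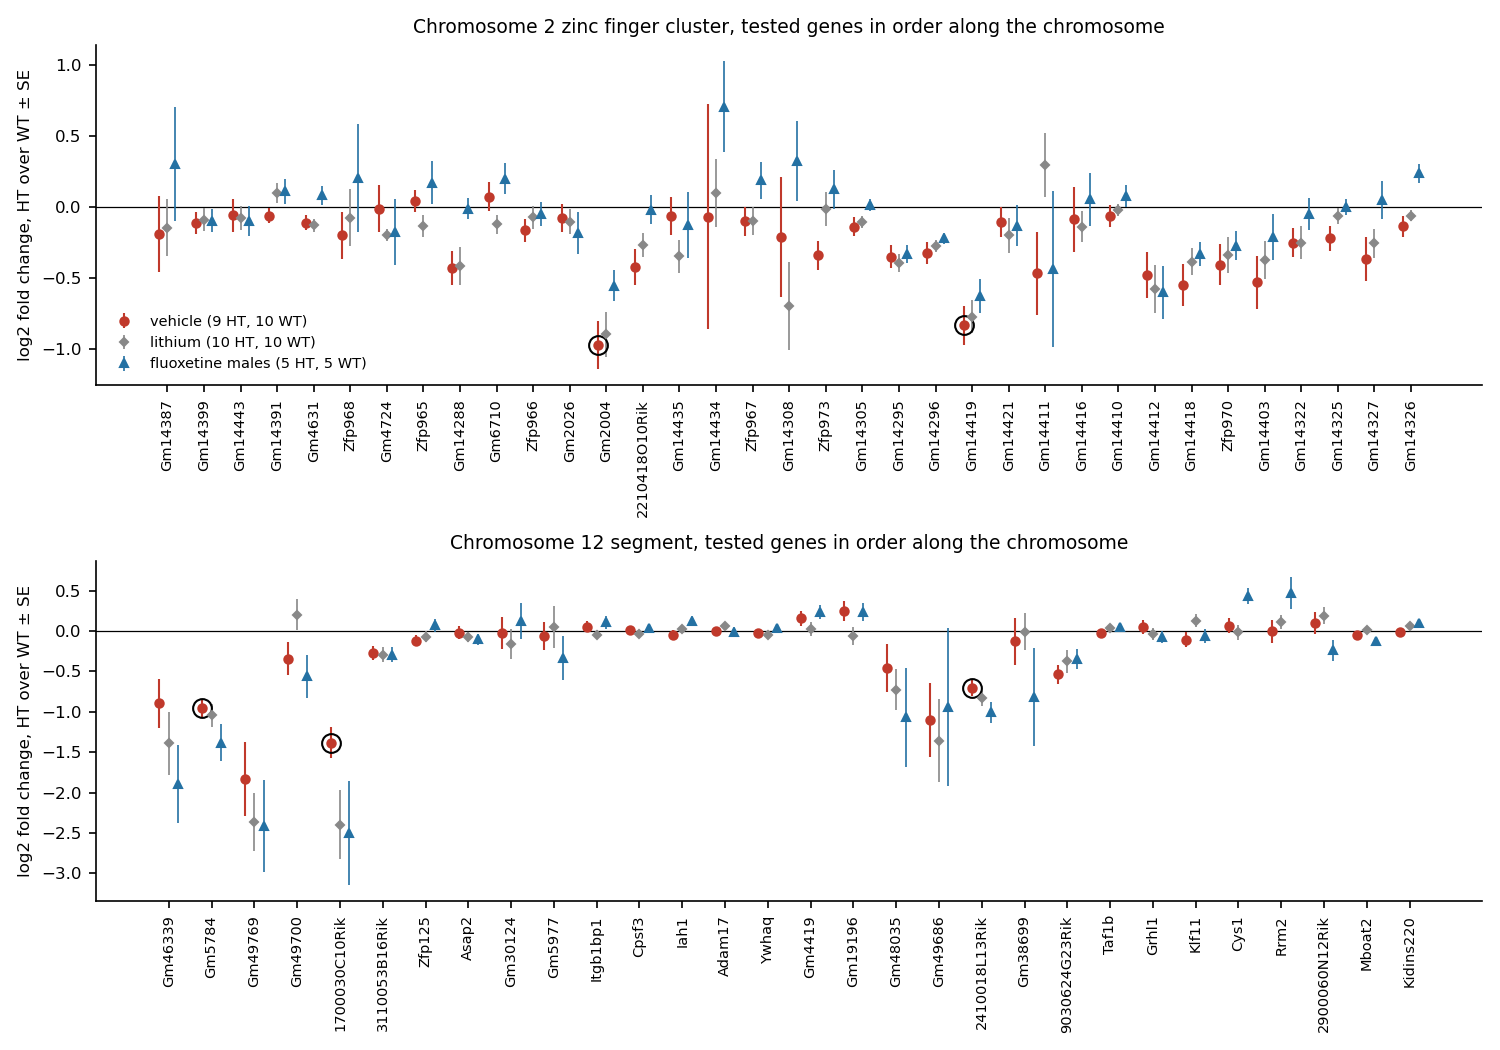
Log2 fold change of HT over WT with its SE (y axis) for the 35 tested genes of the chromosome 2 segment (top) and the 30 of the chromosome 12 segment (bottom), in chromosomal order. Red circles are vehicle, grey diamonds lithium, blue triangles the fluoxetine males, and black rings mark genes called under vehicle: in the chromosome 2 segment 33 of 35 values are negative under vehicle, 32 under lithium and 19 in the fluoxetine males, and in the chromosome 12 segment the low values alternate with genes near 0.

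Pcdha12 and Zfp951 had the highest adjusted p of the 8 called genes. Pcdha12 is a member of the protocadherin alpha cluster on chromosome 18, whose variable exons give neurons different combinations of cell-surface adhesion proteins. It had 446 to 578 normalised read counts with a median of 544 in HT libraries, and 573 to 797 with a median of 669 in WT libraries. The groups overlapped by little, and it fell by 0.35 (SE 0.064, limma adjusted p = 0.0461). Zfp951, a zinc finger gene on chromosome 5, had 33.2 to 64.9 with a median of 53.6 in HT libraries, and 66.3 to 93.5 with a median of 81.5 in WT libraries. The groups did not overlap, and it fell by 0.58 (SE 0.106, adjusted p = 0.0461). The call of Pcdha12 held without HT male replicate 2, WT male replicate 2 or WT male replicate 3, and was lost without any of the other 16 libraries (limma adjusted p up to 0.109). That of Zfp951 held without HT female replicates 1 or 2, HT male replicate 2 or WT female replicate 2, and was lost without any of the other 15 (up to 0.109).

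Other clustered protocadherins were not called. Of 14 tested entries for 13 alpha gene symbols, 1 was called, and 4 were lower and 2 higher at an unadjusted p under 0.05. Their log2 fold changes ran from -0.76 to 0.30 with a median of -0.04. Pcdha9 lay on the higher side at 0.26 ± 0.077 (adjusted p = 0.444), and Pcdha7 on the lower side at -0.28 ± 0.104 (adjusted p = 0.617). Because 64.1% of the 31-base words of Pcdha12 occur in other genes, mostly alpha genes that share its constant exons, a read from those exons cannot be assigned to 1 of them. In the beta cluster 20 of 21 genes had negative values, with a median of -0.14, and 9 were lower and 0 higher at an unadjusted p under 0.05, but limma called 0. Pcdhb5 was nearest, with 79.8 to 147 in HT and 127 to 166 in WT libraries (-0.43 ± 0.082, adjusted p = 0.0701), and was the 1 beta gene that DESeq2 called. Under lithium the beta genes had a median of -0.03 with 0 called by limma, and Pcdhb5 was at -0.13 ± 0.059 (adjusted p = 0.392). Under fluoxetine over both sexes their median was -0.14, with 6 called lower and 0 higher. The 22 gamma genes had a median of 0.01, with 1 higher and 2 lower at an unadjusted p under 0.05.

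The 22 genes with the next smallest p reached adjusted p-values of 0.0698 to 0.165 and are given as values. Of these, 7 were higher and 15 lower in HT. Gli1, the transcription factor at the end of the Hedgehog pathway, had 68.7 to 102 normalised read counts in HT libraries with a median of 86.2, and 34.7 to 74.4 in WT libraries with a median of 52.5 (0.64 ± 0.122, adjusted p = 0.0698). Itih3, a secreted protein that binds hyaluronan, had 362 to 680 in HT and 245 to 443 in WT libraries (0.48 ± 0.101, adjusted p = 0.122). Gmppb, which makes the mannose donor for glycosylation, had 320.2 to 399 in HT and 265 to 320.2 in WT libraries (0.20 ± 0.044, adjusted p = 0.163), and every HT library was above every WT library.

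Other genes of this set were Hspa1a, an inducible Hsp70 chaperone, at 0.27 ± 0.057, and Pth2r, a receptor for parathyroid-hormone-like peptides, at 0.34 ± 0.070. Tm7sf2, an enzyme of cholesterol synthesis, was at 0.16 ± 0.037. On the lower side were Fah, the last enzyme of tyrosine breakdown, at -0.23 ± 0.044, and Klk8, a secreted serine protease, at -0.57 ± 0.115. Parva, an adaptor of focal adhesions, was at -0.16 ± 0.035, the RNA-binding protein Rbms1 at -0.15 ± 0.034 and the paralemmin Palm3 at -0.49 ± 0.105. The zinc finger genes Zfp781 and Zfp52 were at -0.43 ± 0.095 and -0.30 ± 0.069, and the ribosomal protein pseudogene Rps4l at -0.51 ± 0.117. Hspa1a shares 65.4% of its 31-base words with other genes, chiefly Hspa1b (0.31 ± 0.115), and Zfp781 97.7%, so these values are uncertain. The same holds for Gm45899, which shares 91.4% (87.8% with Gm48271), and 9030624G23Rik, which shares 48.8%. The remaining 7 (Gm45899, Gm47572, 4930447C04Rik, 9030624G23Rik, Gm47573, Gm46430 and Pcdhb5) were all lower, at -0.54 to -0.26.

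The sexes were compared within the same libraries. The 8 called genes and the 22 next were chosen on females and males together, so their shared direction in both sexes follows from that choice. Over all genes, 0 differed in genotype effect between the sexes by limma (1135 at an unadjusted p under 0.05), and edgeR also called 0. In the joint fit with a shared spread, the contrast in females gave 3 calls (0.0175%), Kif5c, Gm5784 at -1.02 ± 0.158 and 1700030C10Rik at -1.64 ± 0.265. Males gave 0 by limma and 0 by edgeR (0%), with 1328 genes at an unadjusted p under 0.05. Gm14419 was at -0.68 ± 0.182 in females and -1.01 ± 0.193 in males, and Gli1 at 0.52 ± 0.167 and 0.79 ± 0.177.

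The lithium and fluoxetine libraries give the same genotype contrast in mice that the vehicle comparison did not use, HT or WT. Under lithium 19 genes were called (0.111%; 8 higher and 11 lower), and 6 of the 8 vehicle calls were among them in the same direction, 75% of the vehicle calls and 31.6% of the lithium calls. Kif5c rose by 0.33 ± 0.035 (limma adjusted p = 0.000104), with 28209 to 34252 in HT and 24544.5 to 27150.2 in WT libraries. Gm5784 fell by 1.04 (SE 0.140, adjusted p = 0.00126), with 15.2 to 34.8 in HT and 41.2 to 67.4 in WT libraries. 2410018L13Rik fell by 0.83 (SE 0.096, adjusted p = 0.00017) and 1700030C10Rik by 2.39 (SE 0.422, adjusted p = 0.0198). Gm14419 fell by 0.77 (SE 0.114, adjusted p = 0.00443) and Gm2004 by 0.89 (SE 0.159, adjusted p = 0.0199). Pcdha12 at -0.39 ± 0.102 (adjusted p = 0.163) and Zfp951 at -0.54 ± 0.114 (adjusted p = 0.0669) were not called. All 10 HT libraries lay below the WT mean of their sex for both. The same held for Gm47573, which was called under neither treatment (lithium adjusted p = 0.163), and the share of all genes with this trait was not counted.

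Under fluoxetine 5973 genes were called (34.7%) over both sexes, which included 8 of the 8. The 5 HT fluoxetine female libraries are known from earlier results to stand apart from the other fluoxetine libraries, so the males are given here. In males 130 genes were called (0.756%, 0.349% higher and 0.407% lower), among them 7 of the 8. Kif5c rose by 0.37 ± 0.053 (adjusted p = 0.0157), Gm5784 fell by 1.38 (SE 0.226, adjusted p = 0.0258) and 2410018L13Rik by 1.01 (SE 0.129, adjusted p = 0.0135). Pcdha12 fell by 0.38 (SE 0.064) and Zfp951 by 0.72 (SE 0.123), both at an adjusted p of 0.0283. 1700030C10Rik was at -2.50 ± 0.647 (adjusted p = 0.0886). Of the 22 genes not called under vehicle, 20 had the same sign under lithium and 2 were called there, Kif5b at 0.25 ± 0.046 (adjusted p = 0.0265) and Itih3 at 0.53 ± 0.093 (adjusted p = 0.0198). Kif5b was also called in fluoxetine males, at 0.30 ± 0.051 (adjusted p = 0.0283), and so was 4930447C04Rik at -0.47 ± 0.082 (adjusted p = 0.0291). Gm45899 and Pth2r had the opposite sign under lithium, at 0.17 ± 0.168 and -0.09 ± 0.106.

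**Figure D4:**
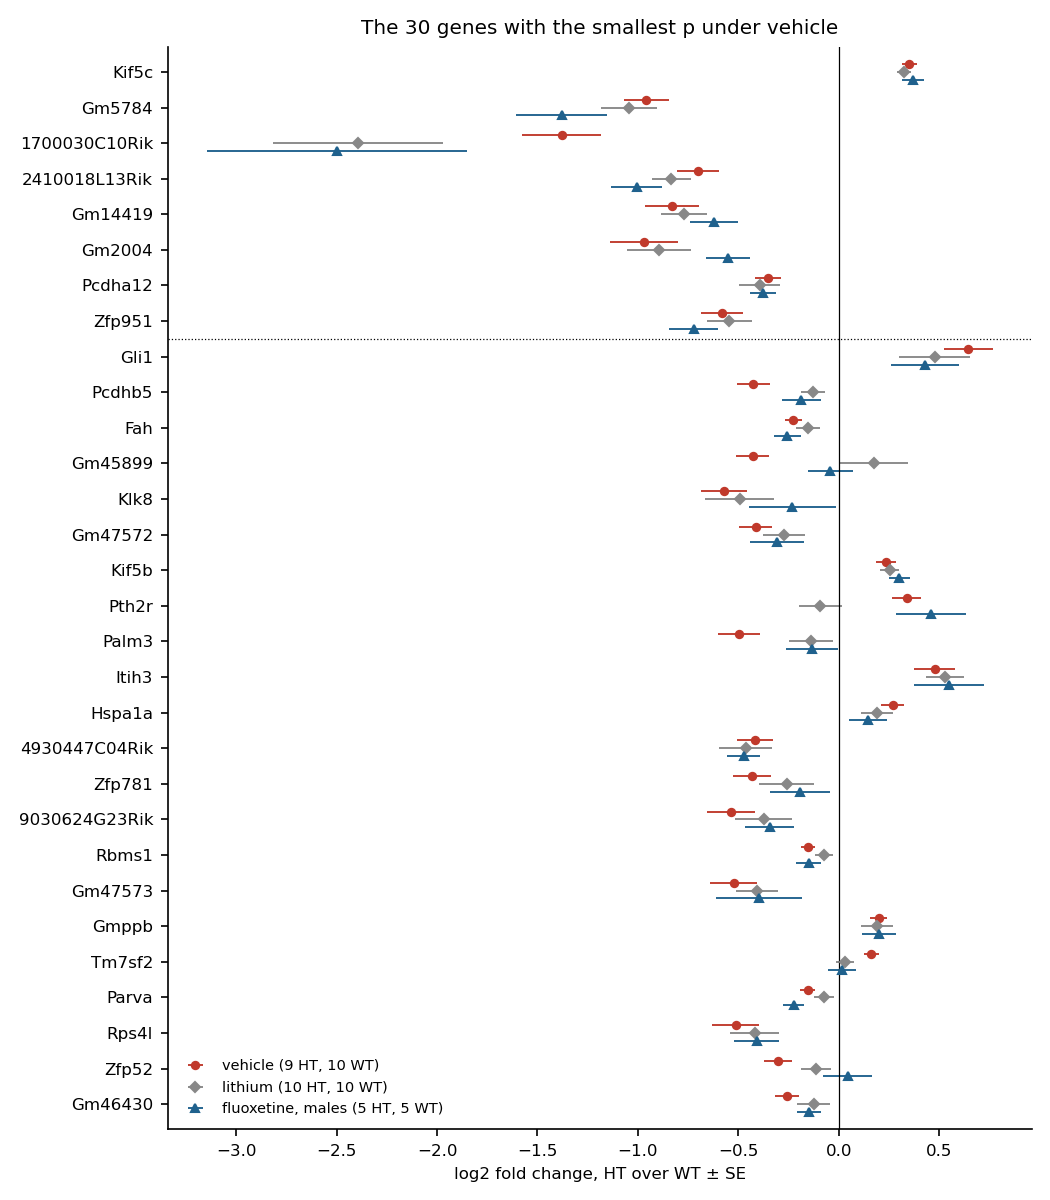
Log2 fold change of HT over WT with its SE (x axis) for the 30 genes of smallest p under vehicle, the 8 called genes above the dotted line. Red circles are vehicle, grey diamonds lithium and blue triangles the fluoxetine males. Of the 30 genes, 28 have the vehicle sign under lithium, 29 in the fluoxetine males and 26 under fluoxetine over both sexes (not drawn). Over all genes, vehicle log2 fold changes also correlated with those under lithium (Pearson r = 0.26) and in fluoxetine males (r = 0.234). Some of the 30 share sequence with each other, so they are not 30 separate readings.

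The contrast was also read the other way. The 19 genes called under lithium were chosen by their lithium values, among the genes that passed the filter in the vehicle libraries. Under vehicle all 19 had the same sign, 18 of them (94.7%) with an unadjusted p under 0.05, against 6.4% of all genes in either direction. Of the 13 that were not called under vehicle, 12 met that count. Besides Kif5b, Itih3, Gm14295, Gm14296 and Gm49769, they include the linker histone gene Hist1h1c, which rose by 0.69 ± 0.131 under lithium (adjusted p = 0.03) and was at 0.53 ± 0.127 under vehicle (adjusted p = 0.219). Trim71, an RNA-binding ubiquitin ligase of early development, rose by 0.70 ± 0.131 under lithium (adjusted p = 0.03) and was at 0.40 ± 0.109 under vehicle (adjusted p = 0.363). The exception was Pdcd11, a ribosome biogenesis factor, at 0.02 ± 0.051 under vehicle and 0.23 ± 0.042 under lithium. Of the 130 genes called in fluoxetine males, 98 had the same sign under vehicle and 25 (19.2%) an unadjusted p under 0.05 as well. Of the 123 among them that were not called under vehicle, 91 had the same sign and 18 (14.6%) also had an unadjusted p under 0.05. Over all 17190 genes the log2 fold changes under vehicle correlated weakly with those under lithium (Pearson r = 0.26) and in fluoxetine males (r = 0.234), across genes that are not independent. Limma called 0 genes whose genotype difference differed between lithium and vehicle (774 at an unadjusted p under 0.05), edgeR also called 0, and the lowest adjusted p of that test among the 30 was 0.925.

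Most measured histone genes had positive log2 fold changes. The 4 measured linker histones, which bind the DNA between nucleosomes, all had positive values with a median of 0.35, and 3 had an unadjusted p under 0.05, but limma called 0. DESeq2 called 1 of them, Hist1h1c (DESeq2 adjusted p = 0.0439). Hist1h1c had 315 to 546 normalised read counts in HT and 186 to 357 in WT libraries. H1f0, the linker histone of non-dividing cells, had 2358 to 2816 in HT and 1989 to 2536 in WT libraries (0.16 ± 0.040, adjusted p = 0.234). It rose by 0.33 ± 0.049 in fluoxetine males (adjusted p = 0.0178) and was at 0.21 ± 0.053 under lithium (adjusted p = 0.163). Of 15 core histones of the clusters, 12 were positive with a median of 0.24, 3 had an unadjusted p under 0.05, and limma called 0. The libraries were selected for poly(A) messenger RNA, and most cluster histone transcripts lack a poly(A) tail, so these levels describe the polyadenylated fraction.

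Genes of dividing or immature cells had a median of 0.13 with 16 of 18 positive, and 1 at an unadjusted p under 0.05, Ube2c, a mitotic ubiquitin-conjugating enzyme (0.72 ± 0.265, adjusted p = 0.625). Limma called 0 of them. Among 41 imprinted genes 4 were higher and 0 lower at an unadjusted p under 0.05. Magel2, a regulator of endosomal protein sorting, was at 0.59 ± 0.181 and Nnat, a membrane proteolipid of developing neurons, at 0.54 ± 0.191. Peg10, derived from a retrotransposon, was at 0.30 ± 0.118, and Dio3, which inactivates thyroid hormone, at 0.25 ± 0.118. Their adjusted p-values were 0.465 to 0.769, and limma called 0 of the 41.

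The main synaptic and metabolic families showed no call by limma, and DESeq2 called 2 of their genes, Rps4l and Hspa1a (DESeq2 adjusted p = 0.012 and 0.0135). Of 33 postsynaptic genes 0 had an unadjusted p under 0.05 and the median was -0.01. Of 32 presynaptic genes 1 did, Vamp1, a vesicle SNARE, at -0.19 ± 0.080, with a median of -0.00. Glutamate receptors (25 genes) had a median of 0.01, and GABA receptors (14 genes) -0.04. Monoamine receptors (23 genes) had a median of 0.06, immediate early genes (28 genes) -0.07, and the 2 lists held 1 and 0 genes at an unadjusted p under 0.05. Cytosolic ribosomal proteins (83 genes) had a median of 0.04, with 63 positive and 3 at an unadjusted p under 0.05 including Rps4l. Under lithium their median was -0.05. Oxidative phosphorylation genes (73) had a median of 0.01, chaperones (25) 0.00 and cholesterol synthesis genes (22) 0.02. The other N-terminal acetyltransferases and methionine aminopeptidases (10 genes) had a median of -0.01. The 1 gene among them at an unadjusted p under 0.05 was Naa80, the actin acetyltransferase, at 0.15 ± 0.051 (adjusted p = 0.563).

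Cell type markers gave no call by limma, edgeR or DESeq2 in any of 14 lists. Medians were -0.01 for excitatory neurons, -0.02 for inhibitory neurons, -0.04 for astrocytes, 0.05 for oligodendrocytes, 0.07 for their precursors and 0.10 for microglia. The 6 striatal markers had a median of 0.37 and the 5 olfactory bulb markers 0.28, all positive, with 0 at an unadjusted p under 0.05. The libraries highest in these markers were those named above. Without the 2 libraries highest in striatal markers 5 genes were called, and without the 3 highest in bulb markers 3 genes, both choices made after the data were seen. With both marker levels as covariates 7 were called. Kif5c and Gm5784 were among the calls in each case. The part of neighbouring tissue in the remaining calls was not tested beyond this.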

How the data were processed

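Poly(A) RNA of prefrontal cortex was sequenced with a stranded kit, per the labels' protocols. The deposited table holds a signal per Ensembl gene that the authors made by scaling counts with 1 size factor per library: in 59 of 59 columns every value from 1 to 1000 reads was a whole multiple of 1 step (100% within 0.01 read). The submitters' processing notes give the build GRCm38 and, with no role stated, DESeq2 1.19.11, Salmon 0.11.2 and R 3.6.0. The gene filter and counting rules are not given in the sources used here.

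Gene symbols, types and positions came from GENCODE M21, which matched 18077 of 18088 identifiers. In R 4.3.3, limma 3.58.1 with an intensity trend was fitted to log2(value + 1) and tested two-sided on the 19 vehicle libraries with 16 residual degrees of freedom. Lithium and fluoxetine libraries were fitted separately over the same genes, and interactions as differences of differences. Library measures were compared by exact permutation within sex (31752 arrangements). Alternatives included edgeR 4.0.16 and DESeq2 1.42.0 on the reads recovered from the steps, and leaving out each library. The scripts were checked on simulated counts. Shared sequence was counted as 31-base words of GENCODE transcripts, and promoters were aligned with Biopython 1.88. Figures were drawn with matplotlib 3.10.9.

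The libraries compared, the 45 gene lists and the tests were chosen with earlier results of these data known. The genes named are the NatA list, every called gene, the next smallest p up to 30 in all, up to 4 members of each list and the sex-linked genes. Genes of the chromosome 2 and 12 segments, and genes called under lithium, were named after their values were seen. Some members of the lists are not named for length. Replicate numbers are those of the titles. The library names number 2 HT vehicle males differently, replicates 3 and 4 of the titles being 4 and 5 there. No pair of libraries was a duplicate. Read depth limits only the counting error.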

Additional observations from a re-analysis of the deposited data

Results flagged for a closer look

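For the 30 genes with the smallest p, Naa15 and 6 library measures, 148 groups of 4 or 5 libraries were searched for a library far from the rest of its group, and 11 were found. By chance about 1 in 20 groups would hold one. Among genes, Pcdha12 was low in HT female replicate 4 (451.4 normalised read counts, against 544 to 566 in the other HT females), where Fah was high (355.2, against 313 to 321). Gmppb was high in HT female replicate 2 (399.1, against 320.2 to 343) and in HT male replicate 3 (364.7, against 341 to 343). WT male replicate 4 was high in Gm5784 (57.26, against 45.5 to 47.8) and Hspa1a (325.5, against 295 to 303), and WT female replicate 4 was low in Parva (1848, against 2021 to 2076).

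Among library measures, the share of reads from the mitochondrial chromosome was 6.741% in HT female replicate 4, against 5.23% to 5.60% in the other HT females. The summed striatal markers were 16990 in HT male replicate 3, against 3194 to 3906 in the other HT males, and 13450 in WT female replicate 4, against 2845 to 4298 in the other WT females. The slope of log2 values on GC content was -0.1755 in WT female replicate 1, against -0.000595 to 0.0648 in the other WT females.

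The genotype difference under fluoxetine, less that under vehicle, passed limma's threshold for 7 of these 31 genes. It was -0.579 for Gm5784 (limma adjusted p = 0.0305), 0.472 for Gm14419 (0.0443), 0.433 for Gm45899 (0.0154) and -0.479 for Hspa1a (0.00732). It was 0.525 for Zfp781 (0.0152), 0.443 for Zfp52 (0.00461) and 0.156 for Naa15 (0.0495). Over all genes 3301 (19.2%) passed in that test, and in the males alone 0 did.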

How the results depend on the processing

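The vehicle comparison called 8 genes. It called 17 without the intensity trend, 22 with DESeq2, 20 with the first residual principal component and 20 in 12 groups of all 59 libraries (6 shared). It called 5 after quantile normalisation and 3 at a mean of at least 100. It called 3 without the olfactory bulb-high libraries and 5 without the striatum-high ones, both chosen after the data were seen. Residuals of same-numbered libraries correlated above 0.1 in 4 of 9 pairs by the titles' numbers (-0.116 to 0.266). By the library names' numbers they did so in 4 of 9 (-0.0638 to 0.266). In each numbering, 3 of 9 HT libraries correlated best with their own number. Whether the numbers pair the libraries cannot be told from these values. With the replicate block within sex the vehicle comparison called 5 by the titles' numbers, of which 4 were among the 8. The block by the library names' numbers, added after the data were seen, gave 1 call, Kif5c. Leaving out 1 library gave 5 to 10 calls. The 5 arose without HT female replicates 4 or 5, HT male replicate 3, WT female replicates 1 or 5, or WT male replicates 1, 4 or 5. The other alternatives, edgeR among them, gave 6 to 9. The 3 calls in females became 0 with the replicate block and 1 to 3 on leaving out a library, and the 0 in males became 11 in the 12 groups. Lithium's 19 became 11 with the replicate block, 0 in males only and 11 to 21 on leaving out a library (12 without HT male replicate 2, 11 without WT female replicate 2). Fluoxetine's 5973 became 130 in males only, and its interaction's 3301 became 0. The causes were not tested. Kif5c was called in all of its 39 alternatives. Gm5784 was not called in 1 of 38 (adjusted p = 0.0612 with the block by library names), 1700030C10Rik in 3 of 38, 2410018L13Rik in 2 of 39 and Gm14419 in 2 of 39. Gm2004, Pcdha12 and Zfp951 were not called in 19 of 38, 26 of 39 and 22 of 38. Naa15 was 0.00433 after removal of GC and length trends and 0.0075 without the bulb-high libraries. Genes of few reads, among them 6 of the 8, carry most counting error.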
